A study of Mus musculus with 15 samples.

Results

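The effect of branched-chain amino acids (BCAA) on liver gene expression was compared within the Ath+HF diet, an atherogenic and high-fat diet, at 38w. The comparison rests on 6 of the 15 arrays of the series, chosen by their titles, which are 3 of the Ath+HF group and 3 of the Ath+HF+BCAA group, whose diet held 3% BCAA. All mice were male C57BL/6J, were put on their diets from week 8 and were killed at 38 weeks after 30 weeks of diet. The basal diet group at 38w (3 arrays, no Ath+HF diet and no BCAA) gives the level without the Ath+HF diet. Another 6 arrays, of mice at 68 weeks after 60 weeks of diet, entered the estimate of the spread. They also entered the choice of the transcript cluster that stood for a gene with several. Of these 6 arrays, 3 were of Ath+HF and 3 of Ath+HF+BCAA with 3% BCAA. Total RNA from frozen liver was measured on the GeneChip Mouse Gene 1.0 ST platform, and the values below are the deposited log2 signals, already normalized by the authors. A difference of 1 on this scale is a fold of 2. The sources do not say that each array is a separate mouse, so the p-values reflect only how these arrays vary, and part of that variation may be technical. All 19938 genes with a single symbol were compared, and 3 arrays in a group limit how precise each value can be.

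BCAA are valine, leucine and isoleucine, which the body cannot make. Leucine activates the kinase complex mTORC1, and most of the transamination of BCAA takes place outside the liver, while the liver oxidizes the resulting ketoacids. In diet-induced steatohepatitis, macrophages gather around fat-laden hepatocytes, and hepatic stellate cells turn into collagen-producing cells under TGF-β and PDGF. The study gave BCAA to ask whether they lessen steatosis, fibrosis and tumors in this model.

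The 9 arrays of 38w had the profile of liver. The hepatocyte gene Alb, which encodes albumin, lay between 13.91 and 14.16 in all of them, near the top of the scale. The exocrine pancreas gene Prss2 lay between 5.34 and 6.07, below the median of 7.36 for all genes in the 6 arrays. The median of an array over the genes ranged from 7.28 to 7.39 at 38w. Whole liver was measured, so fewer cells of a type and less RNA per cell cannot be told apart.

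One array stood apart before any group was compared. The distance between 2 arrays was taken as the root mean square difference over all genes. The 3 pairs within Ath+HF lay at 0.258 to 0.262, Ath+HF+BCAA replicates 1 and 2 lay 0.261 apart, and the 6 pairs between Ath+HF and these 2 arrays lay at 0.259 to 0.286. Ath+HF+BCAA replicate 3 lay at 0.311 to 0.346 from each of the other 5 arrays. In numbers of genes more than 2-fold apart, pairs among the other 5 arrays had 51 to 120, and the pairs with replicate 3 had 196 to 248. Thus most pairs of arrays with and without the supplement were about as close as pairs on the same diet, except where replicate 3 was in the pair. This array alone carried 25.7% of the sum of squares within the 2 groups, and the other 5 carried 13.4% to 18.3%.

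**Figure D1:**
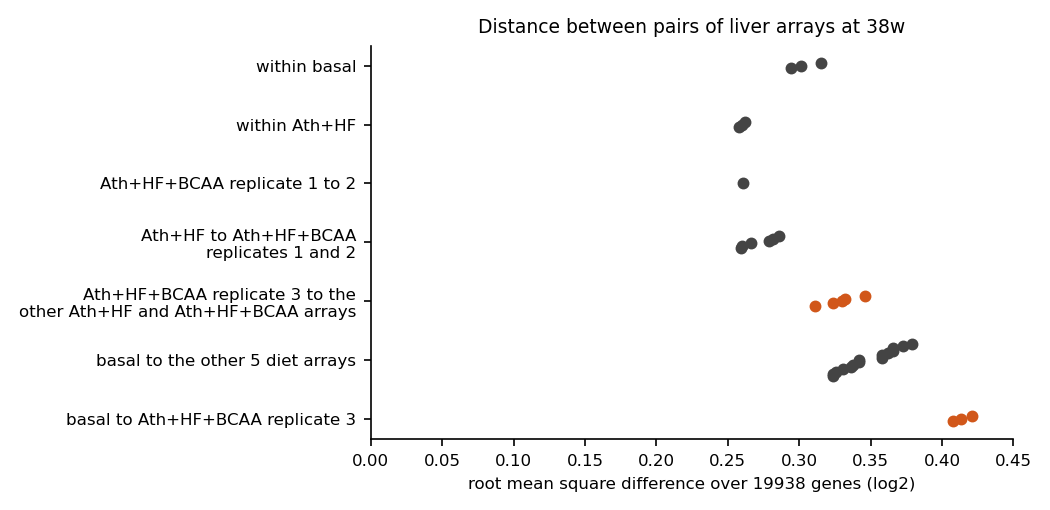
Root mean square difference in log2 signal over 19938 genes (horizontal axis) for each pair of the 9 liver arrays of 38w, grouped by the kind of pair (vertical axis), 1 point per pair. Pairs with Ath+HF+BCAA replicate 3 (orange) lie at 0.311 or more from the other diet arrays, and the remaining pairs of Ath+HF and Ath+HF+BCAA arrays lie at 0.286 or less.

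Several of the genes farthest from the median of the other 5 arrays in replicate 3 act in fatty acid oxidation or in lipid synthesis. They are named here after their values were seen. Cyp4a14, a fatty acid hydroxylase and a target of the nuclear receptor PPARα, was at 13.16, 13.23 and 13.26 in Ath+HF and at 12.92, 13.36 and 9.22 in Ath+HF+BCAA. Its relative Cyp4a10 was at 12.65 to 12.80 in Ath+HF and at 12.72, 13.05 and 10.42 in Ath+HF+BCAA. Igfbp1, an insulin-repressed binding protein of insulin-like growth factors, was at 10.24 to 10.57 in Ath+HF and at 10.41, 11.61 and 8.38 in Ath+HF+BCAA. In these genes, Ath+HF+BCAA replicates 1 and 2 lay near or above the Ath+HF arrays and replicate 3 lay below all other arrays of both groups. The opposite was seen for Srebf1, the transcription factor of fatty acid synthesis, which was at 9.51 to 9.61 in Ath+HF and at 9.15, 8.86 and 10.84 in Ath+HF+BCAA. Cyp51, an enzyme of cholesterol synthesis, was at 7.28 to 7.44 in Ath+HF and at 7.40, 7.43 and 8.64 in Ath+HF+BCAA. Thrsp, a lipogenic gene, was at 8.19 to 9.0 in Ath+HF and at 7.96, 7.85 and 10 in Ath+HF+BCAA. The difference with BCAA was 0.06 for Srebf1, 0.44 for Cyp51 and -0.09 for Thrsp, and without replicate 3 it was -0.55, 0.03 and -0.79. The labels give neither the feeding state nor the hour at which a mouse was killed, and the part of either in these values was not tested.

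Between Ath+HF and Ath+HF+BCAA at 38w, limma called 0 of the 19938 genes at an adjusted p under 0.05, which is 0% of those tested. The smallest adjusted p was 0.191. At an unadjusted p under 0.05, 682 genes (3.42%) were higher with BCAA and 846 (4.24%) were lower. When the medians of the arrays were set equal, these were 1059 higher and 474 lower, so that the share of higher genes moved from 44.6% to 69.1%. The limits the study set for its lists, a fold over 1.5 and P under 0.005, were passed by 29 genes (0.145%) that were higher and 23 (0.115%) that were lower. This balance changed with the processing, to 43 higher and 15 lower with the array medians set equal and to 2 higher and 7 lower without dim genes. All 3 Ath+HF+BCAA arrays lay above all 3 Ath+HF arrays in 917 genes (4.6%) and below them in 1295 (6.5%).

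The 95% intervals of the fit limit the size of each difference. Their half-width had a median of 0.27 on the log2 scale, a fold of 1.2, and ranged from 0.19 to 0.47 between the 5th and the 95th percentile of genes. The whole interval lay within a fold of 1.5 in either direction for 17345 genes (87.0%) and within a fold of 2 for 19705 (98.8%). It lay within a fold of 1.2 for 2454 genes (12.3%). Thus a change of 2-fold or more lay outside the interval of nearly every gene, while a change of 1.2-fold could not be told from none for most. The median size of a difference, without its sign, was 0.1, and 9 genes differed by more than 1 in the means. For Ath+HF against basal diet, the median size was 0.129 and 152 genes differed by more than 1. With the 9 arrays of 38w alone, that is without the 68w arrays in the spread, limma also called 0 genes, 1040 were at an unadjusted p under 0.05, and the median half-width was 0.29.

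**Figure D2:**
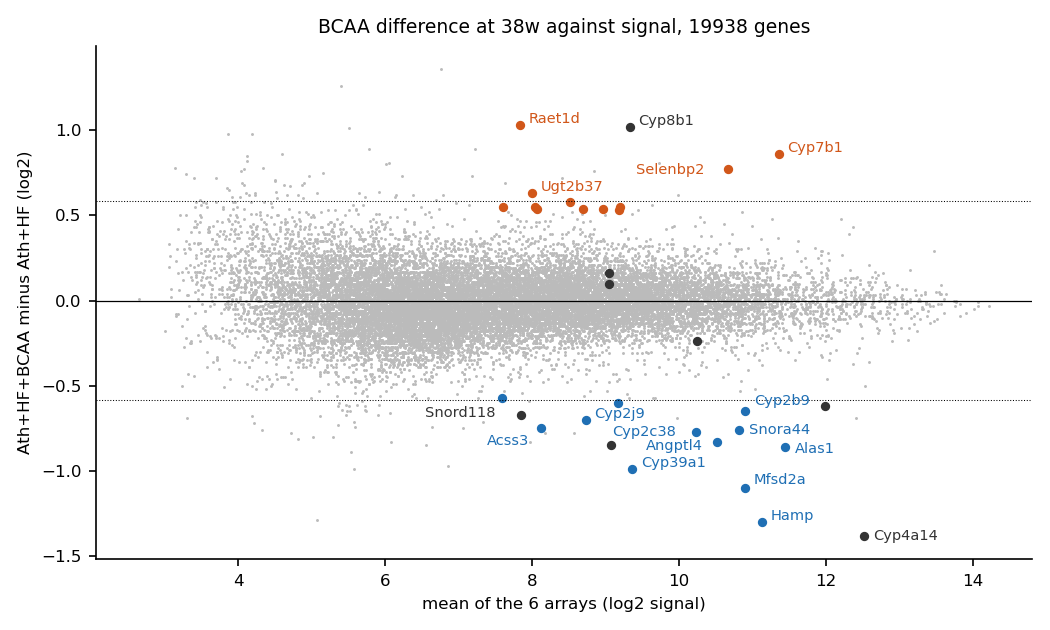
Difference of Ath+HF+BCAA minus Ath+HF at 38w (log2, vertical axis) against the mean signal of the 6 arrays (log2, horizontal axis), 1 point per gene, with dotted lines at a fold of 1.5. Orange and blue points are the 12 higher and 12 lower genes with the largest differences among genes whose groups did not overlap, dark points are genes with the largest spread within groups, and no point passed the adjusted limit of 0.05 by limma.

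The largest differences are described among genes whose groups did not overlap and whose mean was at or above 7.36, the median of all genes. This rule chose them by their values, so these values are a description. The largest difference downward was that of Hamp, which encodes hepcidin, the hormone of the liver that limits the release of iron into the blood. Hamp was at 12.25, 12.26 and 12.18 on basal diet, at 12.04, 12.04 and 11.25 in Ath+HF and at 10.77, 9.78 and 10.88 in Ath+HF+BCAA. The lowest Ath+HF array lay above the highest Ath+HF+BCAA array, and both Ath+HF groups lay below the basal arrays. The difference was -1.30 (standard error 0.29, 95% interval -1.93 to -0.68), a fold of 0.406, with an adjusted p = 0.323 from limma. Without Ath+HF+BCAA replicate 3 it was -1.50, and without Ath+HF+BCAA replicate 2, the array at 9.78, it was -0.95. Its neighbor Hamp2 was at 7.37, 7.64 and 6.65 in Ath+HF and at 6.76, 6.48 and 7.01 in Ath+HF+BCAA, where the groups overlapped. The sequences of Hamp and Hamp2 are alike, and how far their probes share signal was not tested.

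The promoter of Hamp is shown because this gene had the largest such difference and holds the sites through which bone morphogenetic proteins and STAT3 are known to act on hepcidin. It was taken from RefSeq (GRCm38.p6) as the 250 bases before and 50 after the annotated start, chr7:30943980-30944279 on the minus strand. Capitals mark GGCGCC, the core of the element of bone morphogenetic proteins, and TTCTTGGAA, a match to the STAT motif TTCNNNGAA. These matches begin at bases -109 and -97 from the start.
Hamp: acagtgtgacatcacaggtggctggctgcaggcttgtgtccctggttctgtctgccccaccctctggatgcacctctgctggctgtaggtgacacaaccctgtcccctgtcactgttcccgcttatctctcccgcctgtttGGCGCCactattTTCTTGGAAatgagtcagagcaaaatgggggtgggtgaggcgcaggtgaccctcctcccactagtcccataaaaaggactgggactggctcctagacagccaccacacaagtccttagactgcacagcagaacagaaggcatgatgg
On either strand, GGCGCC is held by 11.9% and TTCNNNGAA by 8.3% of 32851 promoters of this length, and 0.645% hold both. A match is a stretch of letters, and these arrays do not measure binding.

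Other genes chosen this way had a lower mean with BCAA. Cyp39a1, a hydroxylase of oxysterols in bile acid synthesis, was at 9.66, 9.36 and 10.56 in Ath+HF and at 9.09, 8.55 and 8.97 in Ath+HF+BCAA. The difference was -0.99 (standard error 0.26, 95% interval -1.55 to -0.43), with an adjusted p = 0.39 from limma. It was -0.64 without Ath+HF replicate 3, the array at 10.56. Acss3, a mitochondrial synthetase of short-chain acyl-CoA, was at 9.44 to 10.25 on basal diet, at 8.80, 8.42 and 8.27 in Ath+HF and at 7.55, 7.58 and 8.13 in Ath+HF+BCAA. It was thus lower on the Ath+HF diet than on basal diet (adjusted p = 0.00106 from limma), and the arrays with BCAA lay lower again (95% interval -1.2 to -0.30). This second difference of Acss3 was not called (adjusted p = 0.438 from limma). Snora44, a small nucleolar RNA, was at 11.09, 11.35 and 11.14 in Ath+HF and at 10.45, 10.42 and 10.44 in Ath+HF+BCAA. It had the smallest unadjusted p of the genes that were lower (3.97e-05, adjusted p = 0.191 from limma). Its arrays differed little within a group, and its difference of -0.76 was the same without replicate 3.

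In 3 further genes of this kind the size depended on Ath+HF+BCAA replicate 3. Mfsd2a, a transporter of lysophosphatidylcholine, was at 11.41, 11.38 and 11.58 in Ath+HF and at 10.41, 11.23 and 9.43 in Ath+HF+BCAA, and its difference was -1.10 with and -0.64 without replicate 3. Alas1, the rate-limiting enzyme of heme synthesis, was at 11.92, 11.87 and 11.81 in Ath+HF and at 11.32, 11.48 and 10.24 in Ath+HF+BCAA, and its difference was -0.86 with and -0.47 without it. Angptl4, a secreted inhibitor of lipoprotein lipase, was at 10.85, 11.07 and 10.88 in Ath+HF and at 10.37, 10.69 and 9.26 in Ath+HF+BCAA, with -0.83 and -0.40. All 3 genes kept replicates 1 and 2 below every Ath+HF array. The adjusted p of these 3 was between 0.456 and 0.555 from limma. Of the remaining genes of this rule, the cytochromes P450 Cyp2c38 (-0.77), Cyp2j9 (-0.70) and Cyp2b9 (-0.65) and the clock gene Per1 (-0.57) were lower, and 1 further gene is known by a clone name alone.

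Upward, the largest difference among genes chosen this way was that of Raet1d, which encodes a ligand of the NKG2D receptor of natural killer and T cells. Raet1d was at 9.20, 9.53 and 9.08 on basal diet, at 7.59, 7.25 and 7.11 in Ath+HF and at 8.34, 8.18 and 8.53 in Ath+HF+BCAA. The arrays with BCAA thus lay between those of the other groups, with a difference of 1.03 (standard error 0.36, 95% interval 0.28 to 1.79) and an adjusted p = 0.537 from limma. Raet1d belongs to a family of near-identical genes, whose probes can share signal. Slc15a5, of the family of proton-coupled peptide transporters, had the same order, with 8.60 to 8.96 on basal diet, 7.87, 7.85 and 7.67 in Ath+HF and 8.21, 8.40 and 8.42 in Ath+HF+BCAA. Its difference was 0.54 (standard error 0.11, 95% interval 0.32 to 0.77), a fold of 1.46, with an adjusted p = 0.225 from limma. Nat8f5, of the N-acetyltransferase 8 family, was at 9.73, 10.12 and 9.18 on basal diet, at 8.79, 8.61 and 8.67 in Ath+HF and at 8.94, 9.15 and 9.60 in Ath+HF+BCAA. Its arrays with BCAA overlapped those of basal diet, and its difference was 0.54 with and 0.36 without replicate 3.

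Cyp7b1, which hydroxylates oxysterols in the alternative pathway of bile acid synthesis and is higher in male than in female mouse liver, was at 11, 10.98 and 10.81 in Ath+HF and at 11.96, 11.89 and 11.52 in Ath+HF+BCAA. Its difference was 0.86 (standard error 0.23, 95% interval 0.38 to 1.35), a fold of 1.82, with an adjusted p = 0.39 from limma, and it was 1.0 without replicate 3. Cxcl14, a chemokine, was at 7.46 to 7.73 on basal diet, at 8.29, 8.44 and 8.54 in Ath+HF and at 9.01, 9.24 and 8.64 in Ath+HF+BCAA. It was higher on the Ath+HF diet than on basal diet (adjusted p = 0.00408 from limma), and the arrays with BCAA lay higher again (95% interval 0.24 to 0.85). This second difference of Cxcl14 was not called (adjusted p = 0.39 from limma). Selenbp2, a selenium-binding protein, was at 10.02, 10.58 and 10.26 in Ath+HF and at 10.95, 10.85 and 11.35 in Ath+HF+BCAA, and Smpd3, a neutral sphingomyelinase, was at 7.76, 7.94 and 7.61 and at 8.66, 8.12 and 8.19. The remaining genes of this rule were the glucuronosyltransferase Ugt2b37 (0.63), the ammonium transporter Rhbg (0.58), the protease Capn8 (0.55), the stress gene Gadd45g (0.55) and Nab2, a repressor of early growth response factors (0.53). The 95% interval of Gadd45g ran from -0.13 to 1.23 and so held 0. Without Ath+HF replicate 3, Ugt2b37 was at 0.36 and Rhbg at 0.36. Gm11487, a gene known by its model number, had the smallest unadjusted p of all genes (1.94e-05, adjusted p = 0.191 from limma), with 4.61 to 4.86 in Ath+HF and 5.27 to 5.55 in Ath+HF+BCAA, low on the scale of the array.

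**Figure D3:**
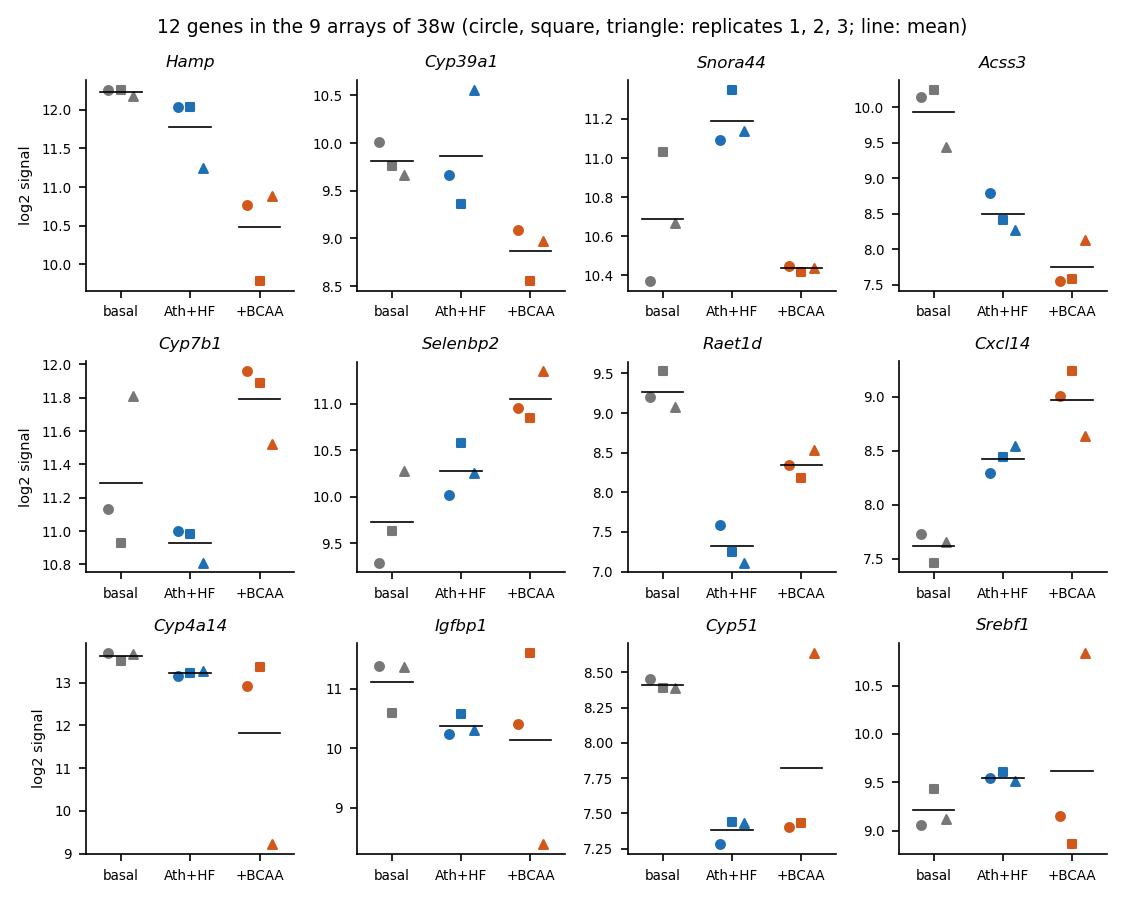
Log2 signal (vertical axis of each panel, with its own range that does not start at 0) of 12 genes in the 3 arrays each of basal diet (gray), Ath+HF (blue) and Ath+HF+BCAA (orange) at 38w, with replicates as circle, square and triangle and group means as lines. The top 8 panels show genes whose Ath+HF and Ath+HF+BCAA arrays did not overlap, and the bottom row shows 4 genes in which Ath+HF+BCAA replicate 3 (triangle) lay far from all other arrays on the Ath+HF diet.

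One more gene was called when this array was left out, and is named after its values were seen. The gene 2010106E10Rik was at 4.63, 4.85 and 4.83 in Ath+HF and at 6.39, 6.40 and 5.29 in Ath+HF+BCAA. Its groups did not overlap, and its difference was 1.26 (standard error 0.24, 95% interval 0.75 to 1.76). Without Ath+HF+BCAA replicate 3 the difference was 1.63, with an adjusted p = 0.00196 from limma, and with weights for the arrays it was 1.44 with an adjusted p = 0.0362. It is known by a clone name and lay below the median of all genes in every array.

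Genes that differ between male and female liver, which follow the secretion of growth hormone, were listed because Cyp7b1 and Selenbp2 are among them, so that both are counted below for a difference already known. Of 24 measured genes of this list, 15 had a higher and 9 a lower mean with BCAA, with a median difference of 0.09 beside -0.01 for all genes. The list was not split by the sex in which a gene is higher, so its median and counts give no direction for either kind. At an unadjusted p under 0.05, 3 were higher and 3 lower, and the groups did not overlap in 6 that were higher and 2 that were lower. Over all genes these shares were 3.42% and 4.24% at that p, and 4.6% and 6.5% without overlap. Moxd1, a monooxygenase-like protein, was at 5.96, 6.05 and 6.21 in Ath+HF and at 6.92, 8.74 and 6.65 in Ath+HF+BCAA, a difference of 1.36 with an interval from 0.48 to 2.24, and 0.71 without Ath+HF+BCAA replicate 2. The flavin monooxygenase Fmo2 was at 8.44, 8.93 and 9.59 and at 8.48, 8.71 and 8.10, a difference of -0.56, and -0.25 without Ath+HF replicate 3. The median of this list was 0.07 without replicate 3 and 0.18 without Ath+HF+BCAA replicate 2.

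The means of the clock genes differed in both directions. Of 19 measured genes of the core clock and its output, 10 had a higher and 9 a lower mean, 0 were higher and 3 lower at an unadjusted p under 0.05 (3.42% and 4.24% over all genes), and the median difference was 0.01. The groups did not overlap in 3 that were higher and 2 that were lower (4.6% and 6.5% over all genes). Per1, a repressor of the clock, was at 7.69, 8.03 and 7.89 in Ath+HF and at 7.29, 7.64 and 6.96 in Ath+HF+BCAA. Nr1d1, which encodes the nuclear receptor REV-ERBα, was at 10.03, 8.66 and 9.26 and at 10.66, 9.78 and 9.94, its interval ran from -0.05 to 1.67, and its difference moved from 0.81 to 0.48 without Ath+HF replicate 2. The deubiquitinase Usp2 was at 7.89, 8.72 and 8.53 and at 7.90, 7.68 and 7.07, and the transcription factor Nfil3 at 9.15, 8.97 and 9.18 and at 8.64, 8.96 and 8.57. Nr1d1 and Usp2 differed by more than 0.8 between arrays of the Ath+HF group itself. The hour of death was not given, so its part in these values was not tested.

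The genes the study followed for fibrosis, TGF-β signaling and tumors were compared as a panel, of which 23 of 24 were measured under a single symbol. The study chose this panel with its own livers, so that it is no independent evidence of a direction. With BCAA, 18 of the 23 had a lower and 5 a higher mean, 0 were at an unadjusted p under 0.05, and the median difference was -0.09. Without Ath+HF+BCAA replicate 2, 9 had a lower and 14 a higher mean and the median was 0.06, so that the lower direction rests on this array. The groups did not overlap in 2, Col4a1 and Ep300, and both were lower, beside 6.5% of all genes that were lower without overlap. The interval lay within a fold of 1.5 for 19 of the 23 genes and within a fold of 2 for 22. The smallest unadjusted p of the panel was 0.101, that of Vav1.

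Among its matrix and stellate cell genes, Col1a2, a chain of type I collagen, was at 7.70 to 7.91 on basal diet, at 8.53, 8.77 and 8.72 in Ath+HF and at 8.65, 8.09 and 8.83 in Ath+HF+BCAA. The difference between the diets with and without BCAA was -0.15 (95% interval -0.52 to 0.22), that is a fold between 0.695 and 1.17. Ath+HF+BCAA replicate 2 lay below every Ath+HF array, and replicate 3 above every one. The difference was 0.07 without replicate 2 and -0.30 without replicate 3. The same order of replicates 2 and 3 was seen for Timp2, an inhibitor of matrix proteases, at 8.74, 8.99 and 8.89 in Ath+HF and at 8.81, 8.29 and 9.16 in Ath+HF+BCAA, with a difference of -0.12, of 0.11 without replicate 2 and of -0.32 without replicate 3. Acta2, which encodes the smooth muscle actin of activated stellate cells, was at 8.20, 8.24 and 8.22 and at 8.32, 7.81 and 8.40, with a fold between 0.633 and 1.49, and its difference of -0.04 was 0.14 without replicate 2 and -0.15 without replicate 3. The collagen chains Col4a1 (-0.10) and Col4a2 (-0.12), Des (0.09), Thy1 (-0.18) and Vim (-0.09) had intervals that held 0.

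The ligands and receptors of TGF-β and PDGF in the panel had differences between -0.05 and 0.08 with BCAA. Tgfbr1, the type I receptor of TGF-β, was at 9.46, 9.26 and 9.34 on basal diet, at 9.84, 9.82 and 9.72 in Ath+HF and at 9.86, 9.64 and 9.83 in Ath+HF+BCAA. It was higher on both Ath+HF diets than on basal diet (adjusted p = 0.0154 without and 0.0168 with BCAA, from limma), and the difference between the 2 was -0.02 (standard error 0.10). Its interval allowed a fold between 0.860 and 1.14. The difference was -0.03 for Tgfbr2, 0.03 for the ligand Tgfb1, -0.04 for the receptor Pdgfrb, -0.05 for Pdgfb and 0.08 for Pdgfc. Their intervals all lay within a fold of 1.5.

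The promoter of Tgfbr1 is shown because the study examined this receptor together with NFY, a transcription factor that binds CCAAT. It was taken from RefSeq (GRCm38.p6) at the first annotated start, chr4:47352972-47353271 on the plus strand. Capitals mark CCAAT and its reverse complement ATTGG, which begin at bases -57 and -154 from the start. The search covered 250 bases before this start and 50 after it. Of the NFY sites the study gives for its reporter, the farther site lies upstream of such a stretch. The search could therefore not find a match at that position. The position given for the nearer site is not that of either match. Whether a match is the same site as a site of the study was not tested.
Tgfbr1: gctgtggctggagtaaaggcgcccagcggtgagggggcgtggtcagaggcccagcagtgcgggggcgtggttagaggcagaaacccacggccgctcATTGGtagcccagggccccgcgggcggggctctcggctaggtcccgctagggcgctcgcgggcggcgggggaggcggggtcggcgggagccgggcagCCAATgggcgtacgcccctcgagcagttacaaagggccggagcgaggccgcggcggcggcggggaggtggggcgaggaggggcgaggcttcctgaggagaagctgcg
CCAAT is held on either strand by 37.4% of the 32851 promoters. Of the NFY subunits in the panel, Nfya was at 9.13, 8.97 and 9.09 in Ath+HF and at 8.95, 8.85 and 8.98 in Ath+HF+BCAA, and Nfyb at 8.82, 8.65 and 8.65 and at 8.88, 8.81 and 9.02. The mean of Nfya was lower by 0.14 and that of Nfyb was higher, by 0.20, with intervals of -0.33 to 0.05 and -0.07 to 0.46. Ep300, the acetyltransferase p300, was at 9.92, 9.87 and 9.87 and at 9.77, 9.83 and 9.79, a difference of -0.09 with a fold between 0.803 and 1.10.

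Vav1, a signaling protein of blood cells, had the lowest mean difference of the panel. It was at 8.21, 8.35 and 8.06 in Ath+HF and at 7.95, 7.65 and 8.20 in Ath+HF+BCAA, a difference of -0.27 (95% interval -0.61 to 0.06), and -0.13 without Ath+HF+BCAA replicate 2 or -0.41 without replicate 3. Lepr, the leptin receptor, had the widest interval, with a fold between 0.470 and 1.48, and was at 7.66, 8.01 and 8.05 in Ath+HF and at 7.63, 8.79 and 6.53 in Ath+HF+BCAA. Its mean difference turned from -0.26 to 0.30 without replicate 3, and that of Irs2, a mediator of insulin signals, from -0.12 to 0.14. For Akt1 (-0.15), Epcam (-0.05) and Myc (0.06) the interval also held 0.

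**Figure D4:**
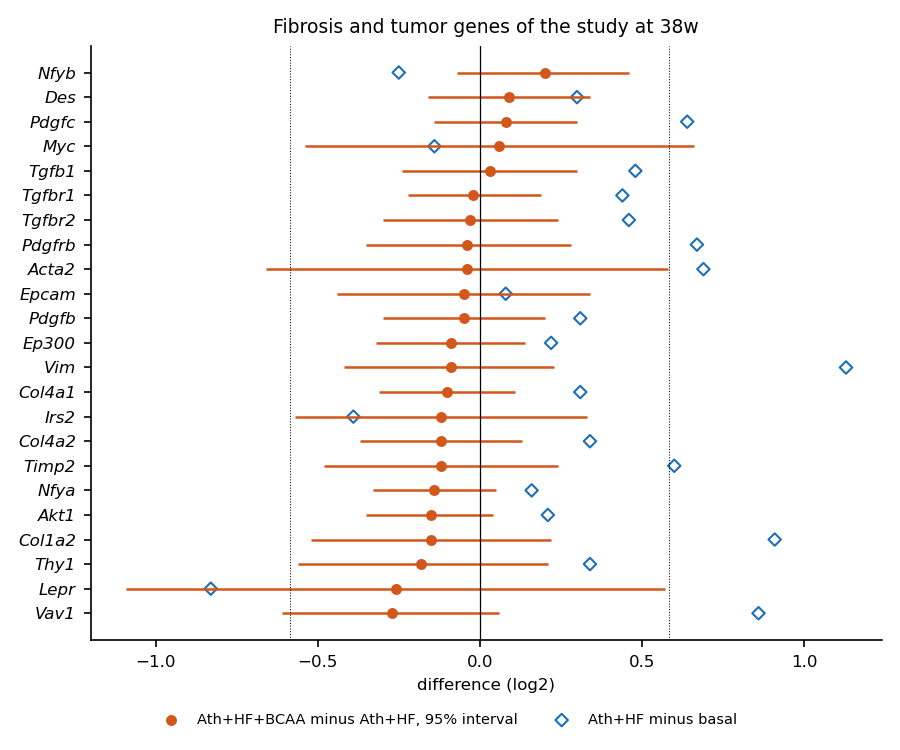
Difference in log2 signal (horizontal axis) at 38w for 23 genes the study followed (vertical axis), with Ath+HF+BCAA minus Ath+HF as orange points with the 95% interval as lines, Ath+HF minus basal diet as open blue diamonds, and dotted lines at a fold of 1.5. All 23 orange intervals hold 0, and 19 lie within a fold of 1.5.

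None of the genes that handle BCAA or other amino acids was called by limma. Of 23 measured genes of BCAA catabolism, 17 had a higher and 6 a lower mean, 0 were at an unadjusted p under 0.05, and the interval of all 23 lay within a fold of 1.5. Without Ath+HF replicate 3, 9 had a higher and 14 a lower mean and the median was -0.03, so that the higher direction rests on this array. Without Ath+HF+BCAA replicate 3, 12 had a higher and 11 a lower mean. Bckdha, part of the dehydrogenase complex that commits the ketoacids of BCAA to breakdown, was at 10.09, 10.22 and 9.99 in Ath+HF and at 10.13, 10.18 and 10 in Ath+HF+BCAA. Bckdhb, its partner in that complex, was at 11.16, 11.33 and 11.18 and at 11.15, 11.13 and 11.01, the 1 gene of the list whose groups did not overlap. Over all genes, 6.5% were lower without overlap. The largest differences were that of the mitochondrial dehydrogenase Hsd17b10 (0.18) upward and that of Bckdhb (-0.13) downward, and the median was 0.04. Acat1 (-0.11) and Mccc2 (0.12) were the next by p.

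The list of mTORC1 components and amino acid sensors had 36 measured genes, with a median difference of -0.01 and all 36 intervals within a fold of 1.5. Mtor, the kinase itself, was at 9.48, 9.41 and 9.40 in Ath+HF and at 9.57, 9.59 and 9.25 in Ath+HF+BCAA. Tbc1d7, a subunit of the TSC complex that restrains mTORC1, was the 1 gene at an unadjusted p under 0.05, at 7.79, 7.58 and 7.58 and at 8.02, 7.82 and 7.94. mTORC1 acts through phosphorylation, which these arrays do not measure. Of 22 amino acid transporters, 11 had a higher and 11 a lower mean, and none was at an unadjusted p under 0.05 by limma. Slc6a19, the transporter of neutral amino acids of gut and kidney, lay at 5.49 to 5.67 and at 5.29 to 5.46. Of 22 genes of the amino acid response and ATF4 targets, 10 had a higher and 12 a lower mean, and Asns, asparagine synthetase, was at 6.37, 6.23 and 6.55 and at 7.09, 7.38 and 6.14. The difference of Asns was 0.49, and 0.85 without Ath+HF+BCAA replicate 3 or 0.23 without replicate 2. The interval lay within a fold of 1.5 for 17 of these 22 genes. At an unadjusted p under 0.05, 0 were higher and 0 lower with all arrays, and 3 passed without Ath+HF+BCAA replicate 3. Of all 19938 genes, 1528 passed that limit with all arrays and 1620 without this array. Of 15 genes of the urea cycle and ammonia handling and 26 of the breakdown of other amino acids, 1 was at an unadjusted p under 0.05, the methyltransferase Bhmt, with 13.15, 13.39 and 13.43 and 13.63, 13.70 and 13.53.

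Macrophage markers were higher on both Ath+HF diets than on basal diet. Of 22 macrophage and monocyte markers, limma called 20 higher in Ath+HF than on basal diet and 20 higher in Ath+HF+BCAA than on basal diet, with median differences of 1.04 and 1.11. Over all genes, limma called 3.05% higher in Ath+HF and 3.67% higher in Ath+HF+BCAA than on basal diet. These 2 comparisons share the basal arrays. Between the diets with and without BCAA, the median was -0.01, 10 genes had a higher and 12 a lower mean, and 0 were at an unadjusted p under 0.05. Taken from the mean of Ath+HF, the median of this list was -0.02, 0.15 and -0.10 in the Ath+HF arrays and 0.09, -0.33 and 0.18 in the Ath+HF+BCAA arrays. Replicate 2 of Ath+HF+BCAA thus lay lowest of the 6 arrays, and replicate 3 highest. Cd68, a lysosomal protein of macrophages, was at 8.80 to 8.93 on basal diet, at 9.91, 10.08 and 9.98 in Ath+HF and at 10.07, 9.74 and 10.31 in Ath+HF+BCAA.

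The same Ath+HF+BCAA replicate 2 lay lowest in related lists. For 9 genes of MHC class II presentation the values were 0.12, 0.10 and -0.30 in the Ath+HF arrays and 0.25, -0.42 and 0.24 in the Ath+HF+BCAA arrays, for 18 genes of lipid-associated macrophages -0.13, 0.11 and -0.05 and 0.10, -0.20 and 0.13, and for 20 collagens -0.09, 0.06 and 0.02 and -0.06, -0.19 and 0.05. Gpnmb, a glycoprotein of lipid-laden macrophages, was at 5.97 to 6.62 on basal diet, at 10.59, 10.88 and 11.03 in Ath+HF and at 11, 10.21 and 11.14 in Ath+HF+BCAA. Its difference with BCAA was -0.05, beside 4.45 for Ath+HF against basal diet (adjusted p = 2.29e-07 from limma). Of the 20 collagens, 18 had a lower mean with BCAA and 2 a higher mean, the median difference was -0.08, all 20 intervals lay within a fold of 1.5, and 0 were at an unadjusted p under 0.05. The median was -0.14 without Ath+HF+BCAA replicate 3 and 0.01 without replicate 2, where 9 had a lower and 11 a higher mean, so that the lower direction rests on replicate 2. Of 20 stellate cell markers, 16 had a lower mean and the median was -0.12, with Tpm2, a tropomyosin of smooth muscle, at 7.58, 7.56 and 7.08 and at 7.24, 6.76 and 7.02. Without Ath+HF+BCAA replicate 2, 13 of these markers had a lower and 7 a higher mean, and the median was -0.08.

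Of 21 matrix proteases and inhibitors, 2 were lower and 0 higher at an unadjusted p under 0.05, beside 4.24% and 3.42% of all genes. Mmp13, a collagenase, was at 6.33 to 6.54 on basal diet, at 8.04, 7.85 and 7.94 in Ath+HF and at 7.73, 7.08 and 7.62 in Ath+HF+BCAA. Its difference was -0.47 (95% interval -0.86 to -0.07) and -0.27 without Ath+HF+BCAA replicate 2, and Mmp23 was at -0.39 (95% interval -0.70 to -0.07). The median of this list moved from -0.08 to 0.05 without Ath+HF+BCAA replicate 2. Of 14 genes of resident Kupffer cells, 11 had a lower mean and 0 were at an unadjusted p under 0.05. The median was -0.12, and it was -0.29 without Ath+HF replicate 3 and -0.04 without Ath+HF replicate 2. Hmox1, heme oxygenase, was at 9.48, 9.98 and 9.68 and at 9.37, 9.43 and 9.24, its groups did not overlap, and its interval ran from -0.81 to 0.08. Of 20 genes of TGF-β and PDGF signaling, 2 were higher and 0 lower at an unadjusted p under 0.05, and 17 intervals lay within a fold of 1.5. The 2 were Pdgfa (8.59 to 8.66 in Ath+HF and 8.82 to 9.21 in Ath+HF+BCAA) and Smad2 (8.33 to 8.60 and 8.62 to 8.82).

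**Figure D5:**
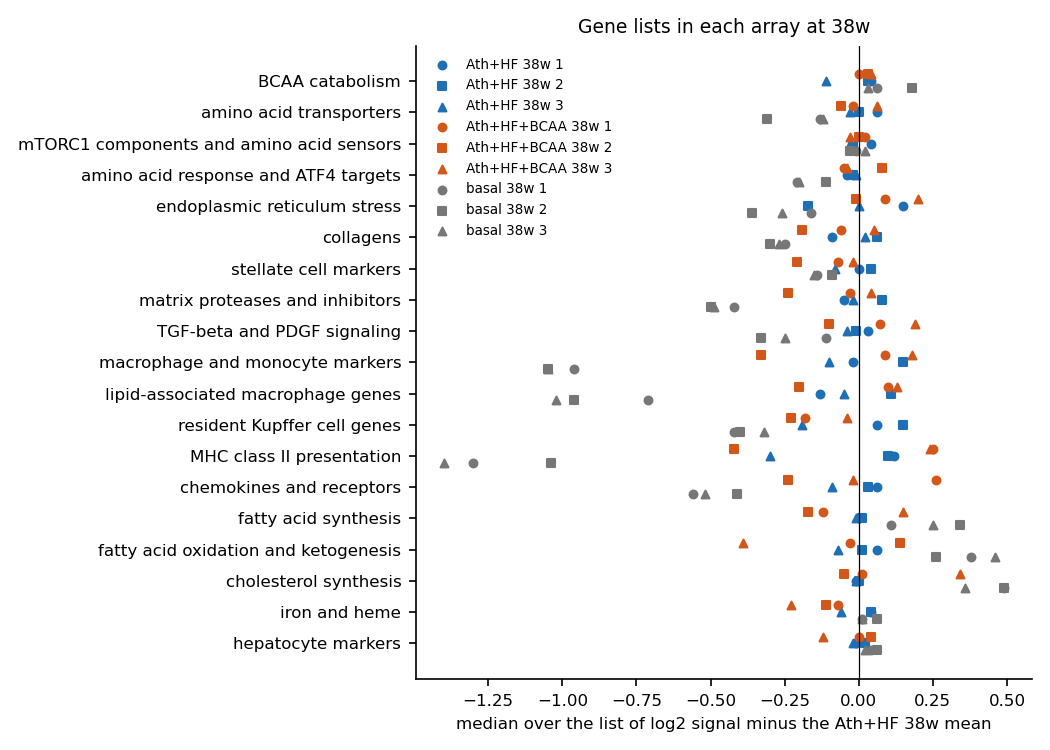
Median over each gene list of the log2 signal minus the Ath+HF 38w mean (horizontal axis) in the 9 arrays of 38w, for 19 gene lists (vertical axis), with basal diet in gray, Ath+HF in blue, Ath+HF+BCAA in orange and replicates as circle, square and triangle. The macrophage and MHC class II lists lie near -1 or below on basal diet, Ath+HF+BCAA replicate 2 (square) lies lowest of the 6 diet arrays in them, and replicate 3 (triangle) lies apart in fatty acid oxidation at -0.39 and cholesterol synthesis at 0.34.

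Among lipid genes, Ath+HF+BCAA replicate 3 lay apart in 2 lists. For 23 genes of fatty acid oxidation and ketogenesis, the list median was 0.06, 0.01 and -0.07 in the Ath+HF arrays and -0.03, 0.14 and -0.39 in the Ath+HF+BCAA arrays. The median of the differences was -0.09, with 19 lower and 4 higher means, and 0.03 without replicate 3. For 20 genes of cholesterol synthesis, the list median was -0.01, 0.00 and -0.01 in the Ath+HF arrays and 0.01, -0.05 and 0.34 in the Ath+HF+BCAA arrays. The median of the differences was 0.11, and -0.01 without replicate 3. Dhcr7, the last enzyme of cholesterol synthesis, was the 1 gene of the list at an unadjusted p under 0.05, at 8.19, 8.57 and 8.28 and at 8.70, 8.53 and 9.08, with a difference of 0.42 that was 0.27 without replicate 3. Acot1, a cytosolic acyl-CoA thioesterase, was the 1 gene of the oxidation list at that limit, at 9.07, 8.85 and 8.97 and at 8.35, 8.96 and 7.23, with a difference of -0.78 that was -0.31 without replicate 3. Over all genes, 3.42% were higher and 4.24% lower at that limit.

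Among 22 genes of fatty acid synthesis the median was -0.01, and -0.16 without replicate 3. Me1, the malic enzyme that supplies NADPH, was at 11.31 to 11.35 on basal diet, at 10.07, 9.66 and 10.14 in Ath+HF and at 9.0, 9.54 and 9.63 in Ath+HF+BCAA. The 3 groups did not overlap, and the difference with BCAA was -0.57 (standard error 0.15, 95% interval -0.89 to -0.24), and -0.37 without Ath+HF+BCAA replicate 1. Fads1, a desaturase, was at 12.20, 12.27 and 12.19 in Ath+HF and at 11.66, 11.66 and 12.29 in Ath+HF+BCAA, and Elovl6, an elongase, at 9.55, 9.56 and 9.60 and at 9.72, 9.65 and 10.28. Without replicate 3 the difference was -0.56 for Fads1 and 0.11 for Elovl6.

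Cyp8b1, the sterol hydroxylase that sets the balance of bile acids toward cholic acid, was among the 8 genes with the largest spread within the 2 groups. It was at 11.66, 11.51 and 11.34 on basal diet, at 9.08, 9.48 and 7.92 in Ath+HF and at 10.26, 10.85 and 8.42 in Ath+HF+BCAA. It was lower in Ath+HF than on basal diet, by a difference of -2.68 (adjusted p = 0.00333 from limma). Of 26 listed genes of bile acid synthesis and transport, 2 were higher at an unadjusted p under 0.05, Cyp8b1 and Cyp7b1, and 0 were lower. Among all genes these shares were 3.42% and 4.24%, and Cyp7b1 had already been chosen by its value. The list does not hold Cyp39a1, which was lower, with a difference of -0.99. The difference of Cyp8b1 with BCAA was 1.02, with a fold between 1.03 and 3.99, and the groups overlapped because of replicate 3. Without this array it was 1.73 (adjusted p = 0.185 from limma), but it was 0.52 without Ath+HF+BCAA replicate 2 and 0.57 without Ath+HF replicate 3. The 8 genes of largest spread also held Cyp4a14, whose difference was -1.38 with and -0.08 without replicate 3, and Cyp4a31 with -0.62 and 0.38. Snord118 (7.36 to 8.82 in Ath+HF and 5.76 to 8.53 in Ath+HF+BCAA), Gm15441 (9.37 to 9.63 and 6.75 to 9.78), Igfbp1, the chemokine Cxcl13 (7.47 to 9.81 and 8.60 to 9.97) and the pseudogene Serpina4-ps1 (8.32 to 9.41 and 7.56 to 10.27) were the others. In 5 of these 8 the Ath+HF+BCAA array farthest from the others was replicate 3 and lowest of all 6 arrays.

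Against basal diet, limma called 608 genes (3.05%) higher and 235 (1.18%) lower in Ath+HF at 38w, and 732 (3.67%) higher and 363 (1.82%) lower in Ath+HF+BCAA. With the array medians set equal these were 427 higher and 436 lower, and 598 higher and 417 lower. The 2 comparisons share the basal arrays, and a gene called in 1 and not in the other is not shown to differ between them. Hamp shows this, with differences from basal diet of -0.45 in Ath+HF (adjusted p = 0.464 from limma) and of -1.75 in Ath+HF+BCAA (adjusted p = 0.00252 from limma), while the direct comparison of both had an adjusted p = 0.323.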

How the data were processed

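The deposited values are log2 signals, which the authors made from GeneChip Mouse Gene 1.0 ST arrays with RMA in Affymetrix Expression Console (version not given in the sources used here), that is, with background correction, quantile normalization between arrays and 1 value per transcript cluster. This step reduces differences between arrays in total signal, though the median of an array over all clusters still ranged from 6.91 to 7.16. Samples were grouped by their labels. Of 35556 clusters, 21789 carried a single symbol in the platform's annotation, 1621 several and 12146 none, and 21698 were found in the RefSeq table by Entrez ID. The cluster brightest over all 15 arrays stood for each of the 999 genes with several, which gave 19938 genes. The filter of dim genes in the alternatives also used the mean over all 15 arrays. All 15 arrays entered a model with a mean for each group in limma (lmFit and eBayes, version 3.58.1 under R version 4.3.3, with 10 residual degrees of freedom). Benjamini-Hochberg adjustment ran over the 19938 genes, and "called" means an adjusted value under 0.05. The study used a 1-way analysis of variance over the groups, which is one of the alternatives. The fit was tested on simulated data. Tables were made with Python (version 3.11.15).

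Members and gene lists were chosen with earlier results of these data known. Genes named are the study's panel, the 12 largest differences in each direction among genes whose groups did not overlap and whose mean was at or above the median, up to 4 genes by p in each list that is described, the 8 genes of largest spread and the smallest p in each direction. Genes named outside this rule are those given for a role or for Ath+HF+BCAA replicate 3. Alternatives were other summaries of clusters, filters, scalings, fits and sets of arrays. The 68w comparisons, histology and PCR are not analysed here.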

Additional observations from a re-analysis of the deposited data

How the results depend on the processing

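The count of genes called for BCAA was 0 under all alternatives but 2, where it was 1 (array weights, and leaving out Ath+HF+BCAA replicate 3), so that leaving out 1 array gave 0 to 1. At an unadjusted p under 0.05 the count was 1528, and 2770 over all transcript clusters or 639 without dim genes, where more or fewer features were tested. Leaving out 1 array gave 1155 to 1912. At the study's limits it was 52, and 203 over all transcript clusters, 9 without dim genes, 32 with the 9 arrays of 38w alone and 5 with an unmoderated analysis of variance and Bonferroni's method over the pairs of groups. Leaving out 1 array gave 52 to 151, the highest without Ath+HF+BCAA replicate 2. With the replicate number as a block (replicate block) the counts were 0, 1537 and 53, and it changed no call. The deviations of arrays with the same number correlated at -0.02 to 0.03 across genes, and those of arrays with other numbers at -0.05 to 0.05. The labels do not say whether the numbers pair the arrays, and 3 arrays in a group are too few to settle it. The Ath+HF diet effect was 843 genes, 483 with the 9 arrays alone and 421 to 708 when 1 array was left out (421 without Ath+HF replicate 2, 545 without basal replicate 3). The Ath+HF+BCAA diet effect was 1095 genes, 590 with the 9 arrays alone, 667 with array weights, 710 with the unmoderated test and 555 to 1310 when 1 array was left out (555 without Ath+HF+BCAA replicate 1, 672 without replicate 3, 723 without basal replicate 3). The cause of these moves was not tested. Of 836 values of 56 named genes, 835 moved by less than the SD within groups, and of 805 values of 54 list medians, 772 did. Of the 56 genes, 20 changed the sign of their mean under at least 1 alternative, and of the 54 medians 42 did. Signals near the background of the arrays limit what the dim genes can show.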

Other observations

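Over all 54 gene lists, the median difference with BCAA ranged from -0.12 to 0.13, beside -0.52 to 1.34 for Ath+HF against basal diet, and no list held a called gene, as limma called 0 of all 19938. It was within 0.1 of 0 in 48 lists. The highest median was that of 23 genes of endoplasmic reticulum stress, 0.13, of which 19 had a higher and 4 a lower mean with BCAA, and 0 were at an unadjusted p under 0.05. Dnajb11, a chaperone of the endoplasmic reticulum, was at 9.46, 9.12 and 9.46 in Ath+HF and at 9.63, 9.73 and 9.62 in Ath+HF+BCAA, while Herpud1, which acts in the degradation of its proteins, was at 12.30, 12.09 and 11.92 and at 11.80, 11.81 and 11.74. The list median was 0.15, -0.17 and 0.00 in the Ath+HF arrays and 0.09, -0.01 and 0.20 in the Ath+HF+BCAA arrays, which overlap. It was 0.10 without Ath+HF+BCAA replicate 3 and 0.17 with the array medians set equal.

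Of 19 genes of iron and heme, 15 had a lower mean with BCAA, 2 were lower and 0 higher at an unadjusted p under 0.05 (Hamp and Alas1), and 5 had groups that did not overlap, all lower. Over all genes, 4.24% were lower at that p and 6.5% were lower without overlap. Hamp and Alas1 had already been chosen by their values, so both are counted here for a difference already known. Without Ath+HF+BCAA replicate 3, the unadjusted p of Alas1 was 0.0618 from limma. Of 24 cytochromes P450 of xenobiotic metabolism, 3 were lower and 0 higher at an unadjusted p under 0.05, and 5 had groups that did not overlap, all lower. Cyp2c38, among these 3, had also been chosen by its value. Cyp2b10, the classic target of the nuclear receptor CAR, was at 7.34, 7.32 and 7.61 in Ath+HF and at 6.65, 6.45 and 6.92 in Ath+HF+BCAA, a difference of -0.75 (95% interval -1.35 to -0.15). Nr1i3, which encodes CAR, was at 11.26, 11.09 and 11.10 and at 10.86, 10.98 and 10.40, a difference of -0.41 (95% interval -0.72 to -0.09), and -0.23 without Ath+HF+BCAA replicate 3.

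Of 31 cell cycle genes, 1 was higher and 2 lower at an unadjusted p under 0.05, beside 3.42% and 4.24% of all genes. The higher one was Cdc6, a loading factor of DNA replication, at 6.37, 6.31 and 6.12 in Ath+HF and at 6.59, 6.42 and 6.56 in Ath+HF+BCAA, a difference of 0.26. Bub1, a kinase of the mitotic checkpoint, was at 5.00 to 5.10 on basal diet, at 5.90, 6.12 and 5.72 in Ath+HF and at 5.51, 5.45 and 5.73 in Ath+HF+BCAA, and Cdc20, an activator of the anaphase-promoting complex, was at 7.33, 7.80 and 7.30 in Ath+HF and at 7.12, 7.14 and 7.25 in Ath+HF+BCAA, a difference of -0.31 that was -0.15 without Ath+HF replicate 2. Of 22 markers of T, natural killer and B cells, 1 was higher and 1 lower at that limit, Gzma, a protease of cytotoxic cells, at 5.63 to 5.99 and at 6.03 to 6.41, and Cd28, with a difference of -0.36. F11, coagulation factor XI, was at 9.81, 9.56 and 9.48 and at 9.91, 9.88 and 10.30, the 1 gene of 18 coagulation factors at that limit.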
